A study of Mus musculus with 3 samples.

Results

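Cells that carried mRNA of *Ifitm5*, a gene of bone-forming cells, were taken from mouse fracture callus and described gene by gene. The cells came from C57BL/6 mice with a femoral fracture and are labeled as untreated. By the study's methods, a fractured femur was held by a steel pin and operated mice received isoflurane and buprenorphine. The study used both sexes without giving them apart. The callus was cleaned of marrow, crushed and digested in collagenase, and live cells negative for CD45, CD31 and TER119 were sorted. Single-cell 3′ libraries were made at day 7, day 10 and day 14, 1 library a day, so a day and its library cannot be told apart. How many mice went into a library and their age are not given in the sources used here. Since cells of 1 library are not replicates, every comparison below is a description of these libraries without a p-value.

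An Ifitm5+ cell was defined as a cell with at least 3 *Ifitm5* UMIs (counted mRNA molecules) and fewer than 50 *Col10a1* UMIs per 10,000 UMIs of the cell. The limit on *Col10a1*, the collagen of hypertrophic chondrocytes, was meant to keep that cell type out. Cells were eligible with 500 to 5000 genes, at most 10% mitochondrial UMIs, at most 5% hemoglobin UMIs and no UMI of *Ptprc*, which encodes CD45. The rule found 704 cells among 16267 eligible cells of day 10 and day 14, out of 30888 barcodes in the 3 libraries. At day 10 they were 201 of 6587 eligible cells (3.05%, 95% interval 2.65 to 3.50). At day 14 they were 503 of 9680 (5.20%, 4.76 to 5.66). All intervals are exact and cover counting error only. The libraries held 113127788, 144103160 and 195661880 UMIs at day 7, day 10 and day 14. The median Ifitm5+ cell had 19849 UMIs at day 10 and 17069 at day 14, against 17300.5 and 15802 in the other eligible cells, which are called the other cells below. Its median number of genes was 3655 and 3413, against 3716 and 3550. The libraries shared 29, 42 and 35 barcodes in pairs, and none of them was an Ifitm5+ cell in both libraries of its pair.

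*Ifitm5* encodes a small membrane protein, also called BRIL, that is made almost exclusively by osteoblasts while they mineralize bone, and mutations of the human gene cause a form of osteogenesis imperfecta. Osteoblasts lay down type I collagen and then the proteins that bind mineral, among them bone sialoprotein (*Ibsp*), osteopontin (*Spp1*) and osteocalcin (*Bglap*, *Bglap2*). Some osteoblasts become buried in the matrix as osteocytes, which switch on *Dmp1*, *Phex* and later *Sost*.

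The 3 promoters shown here belong to the gene that defines the cells and to 2 of the genes by which a mature osteoblast is usually recognized. All come from RefSeq on GRCm38.p6 and run 5′ to 3′ on the strand of the gene, from 250 to 51 bases before its start. Capitals mark GGGCGG, the GC box, and ACCACA, which is TGTGGT, a RUNX-type motif, on the other strand. Both strands were searched for each motif, and these motifs do not overlap in the windows printed.
Ifitm5, chr7:140950294-140950493, minus strand: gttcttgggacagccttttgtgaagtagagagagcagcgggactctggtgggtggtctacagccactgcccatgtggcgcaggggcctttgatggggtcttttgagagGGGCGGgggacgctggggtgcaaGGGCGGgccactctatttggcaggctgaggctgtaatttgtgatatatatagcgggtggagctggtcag
Bglap, chr3:88384517-88384716, minus strand: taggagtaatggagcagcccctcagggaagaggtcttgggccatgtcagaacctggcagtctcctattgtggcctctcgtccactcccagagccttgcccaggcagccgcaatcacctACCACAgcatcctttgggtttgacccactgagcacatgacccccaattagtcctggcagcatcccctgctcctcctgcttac
Dmp1, the second of its listed starts, chr5:104202367-104202566, plus strand: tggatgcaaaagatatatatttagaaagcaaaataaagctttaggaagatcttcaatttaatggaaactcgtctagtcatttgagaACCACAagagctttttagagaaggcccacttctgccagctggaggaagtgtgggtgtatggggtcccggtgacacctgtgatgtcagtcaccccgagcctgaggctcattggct

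The *Ifitm5* window held 2 GC boxes. The *Bglap* window and the printed *Dmp1* window held 1 RUNX-type motif each and no GC box. The window of the first listed *Dmp1* start, not printed, held neither motif. Of all 32851 promoter windows, 24.6% held a GC box and 11.6% a RUNX-type motif. The next shares count genes with the motif in any of their windows. Over all 27025 genes with a window they were 27.2% for the GC box and 13.1% for the RUNX-type motif. Of the 179 genes at least 2-fold higher in Ifitm5+ cells (see the comparison with the other cells), 130 have a window. Of these 130 genes, 53.1% had a GC box and 5.38% a RUNX-type motif, against 53.0% and 10.4% of all genes compared that have a window. The letters are a description and no evidence that a factor binds there. *Bglap2* has no window in the table. In the GENCODE M21 annotation of GRCm38, *Ifitm5* lies at chr7:140948958-140950291, beside its relatives *Ifitm1*, *Ifitm2*, *Ifitm3* and *Ifitm6*. *Bglap* (chr3:88383501-88384464) and *Bglap2* (chr3:88377736-88378699) lie side by side and are near copies. Of all stretches of 50 bases in the last 400 bases of their transcripts, 51.3% of those of *Bglap* also occur in *Bglap2* and 83.2% the other way, so the split of UMIs between both genes is uncertain and their sum is used where possible.

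*Ifitm5* itself had a median of 6.38 UMIs per 10,000 in the Ifitm5+ cells of day 10 and 11.0 at day 14, and its highest cells reached 45.9 and 96.8. Summed over cells, its level was 944 CPM (the share of all UMIs of the group, scaled as counts per 1000000; interval 913 to 975) at day 10 and 1434 CPM (1408 to 1460) at day 14, against 4.31 and 5.12 CPM in the other cells. The cells were chosen by these *Ifitm5* and *Col10a1* values, which are therefore a description and no finding. Just inside the limit were 22 and 53 cells with 3 *Ifitm5* UMIs, and just outside 62 and 83 cells with 2. The *Col10a1* limit removed 5 of 206 cells at day 10 and 13 of 516 at day 14, and the nearest cells were at 48.2 and 45.0 inside and at 64.6 and 57.6 per 10,000 outside.

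The name mature osteoblast held for a minority of the cells when at least 5 osteocalcin UMIs were the criterion, a cutoff chosen after the values were seen. With at least 1 UMI the share was 43.8% at day 10 and 58.1% at day 14. *Bglap* and *Bglap2* together reached at least 5 UMIs in 50 of 201 Ifitm5+ cells at day 10 (24.9%, 19.1 to 31.4) and in 175 of 503 at day 14 (34.8%, 30.6 to 39.1). No osteocalcin UMI was seen in 113 cells (56.2%) and 211 cells (41.9%). The cells are therefore called by their gene, Ifitm5+, in what follows. Osteocalcin UMIs were concentrated in few cells: the 20 and 50 cells with the most held 97.8% and 93.9% of 31305 and 49980 UMIs, and single cells reached 6610 and 6491. The 20 and 50 cells richest in *Ifitm5* held 36.0% and 38.3% of its UMIs, a spread limited by the rule, which requires at least 3. Among genes that the rule does not use, the shares were 30.6% and 33.5% for *Ibsp* and 63.7% and 70.4% for *Phex*.

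**Figure D1:**
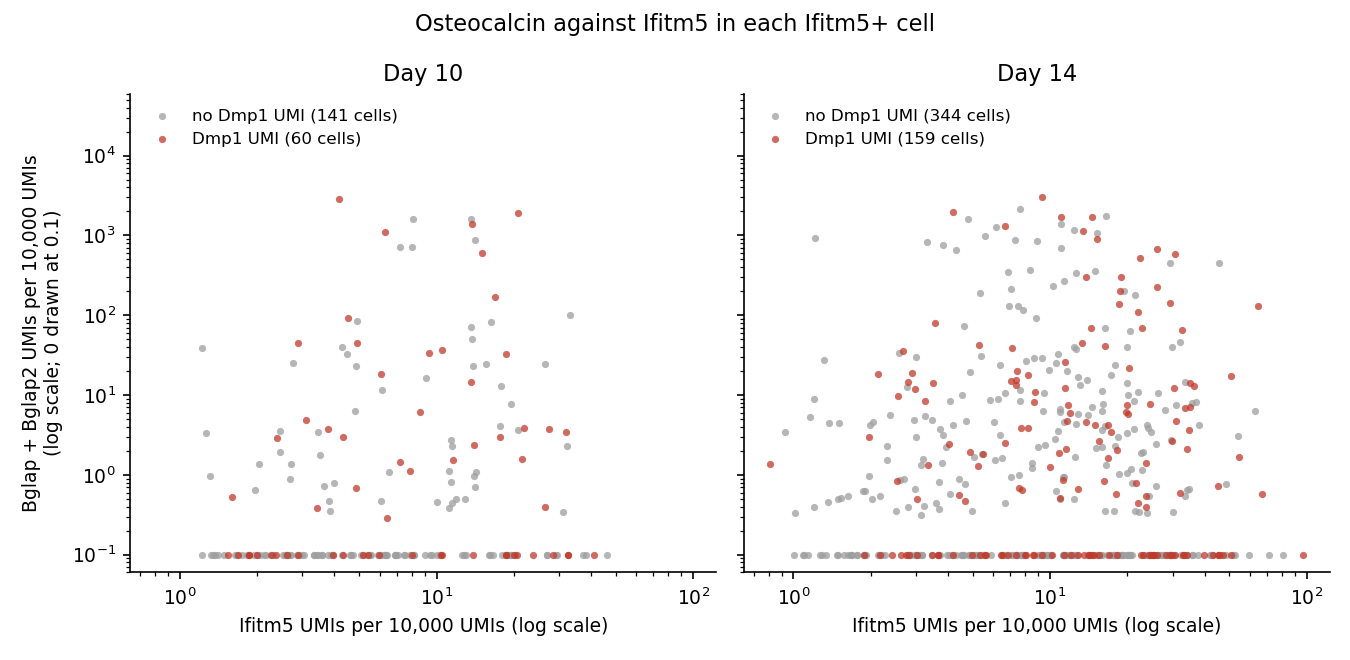
Each point is 1 Ifitm5+ cell. The horizontal axis gives *Ifitm5* and the vertical axis *Bglap* plus *Bglap2*, both in UMIs per 10,000 UMIs of the cell on log scales, with cells without osteocalcin drawn at 0.1, and cells with a *Dmp1* UMI in red. The 113 cells of day 10 and 211 cells of day 14 without an osteocalcin UMI lie along the bottom over the whole range of *Ifitm5*, and cells with and without *Dmp1* are spread through both levels.

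To set these shares against a background, each cell was thinned to 5000 UMIs, which left out 7 and 42 Ifitm5+ cells. *Bglap* was then seen in 26.3% of Ifitm5+ cells at day 10 and in 40.6% at day 14, against 5.50% and 9.59% of the other cells. At day 14 it was also seen in 9.42% of 138 *Ptprc*-positive cells, which should lack it. Among all 173 *Ptprc*-positive cells of that day, *Ifitm5* reached 20.4 UMIs per 10,000. Whether free RNA or doublets (several cells under a barcode) gave the share was not tested. The other cells also included cells rich in osteocalcin, so their share is not free RNA alone. *Bglap2* was seen in 23.7% and 30.8% of Ifitm5+ cells after thinning, against 4.04% and 4.22% of the other cells and 3.62% of the *Ptprc*-positive cells of day 14. *Dmp1* was seen in 24.2% and 25.4% of Ifitm5+ cells, and unthinned in 60 of 201 (29.9%, 23.6 to 36.7) and 159 of 503 (31.6%, 27.6 to 35.9). It was seen in 2.08% and 3.09% of the other cells after thinning. The share was 8.33% in 72 *Rgs5*-high cells (at least 10 UMIs per 10,000 of this pericyte gene) at day 10, in 6 cells, and 5.80% in *Ptprc*-positive cells at day 14. *Ptprc*-positive cells were shallower, with a median of 9210 UMIs at day 14, and *Rgs5*-high cells had 12521.5 and 9076. At day 10 only 4 *Ptprc*-positive cells reached 5000 UMIs, too few for a background share.

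Most cells rich in *Dmp1* were not Ifitm5+ cells, and for osteocalcin the picture changed with the cutoff. Of 131 eligible cells with at least 20 osteocalcin UMIs at day 10, 31 were Ifitm5+ (23.7%, 16.7 to 31.9) and 84 had no *Ifitm5* UMI. At day 14, 100 of 213 such cells were Ifitm5+ (46.9%, 40.1 to 53.9) and 79 had no *Ifitm5* UMI. At 100 or more osteocalcin UMIs, the share was 17 of 38 cells (44.7%) and 49 of 73 (67.1%). Osteocalcin-rich cells outside the rule were thus present on both days. Of the cells with at least 5 *Dmp1* UMIs, 35 of 115 (30.4%, 22.2 to 39.7) and 82 of 258 (31.8%, 26.1 to 37.8) were Ifitm5+. Among the rest of them, 26 and 72 had at least 50 *Col10a1* UMIs per 10,000. *Sost*, the Wnt inhibitor of mature osteocytes, was seen in 1 Ifitm5+ cell at day 10 and in 19 at day 14, of 4 and 30 eligible cells with a *Sost* UMI in all.

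In the comparison with the other cells, 11 of the 17 listed osteoblast genes that passed the filter were at least 2-fold higher. At least 2-fold lower were 8 of 10 chondrocyte markers and all 5 *Postn*+ progenitor markers. All of these counts are for Ifitm5+ cells on both days. Of 7047 genes with a mean of both groups of at least 10 CPM on each day, 179 (2.54%) were at least 2-fold higher on both days and 417 (5.92%) at least 2-fold lower. A gene nearly absent from the other cells passes that filter only through its level in Ifitm5+ cells. The shares of 2.54% and 5.92% are the background for the list counts against the other cells given below. The median log2 ratio over all genes was -0.16 at day 10 and -0.19 at day 14. The 50 most abundant genes took 35.9% and 34.6% of the UMIs of Ifitm5+ cells, against 28.3% and 28.0% in the other cells. With those genes left out of the totals, ratios shifted up by 0.16 and 0.14, and 263 genes were higher and 380 lower.

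Of the 15 genes with the largest ratios, several encode proteins of the cell membrane or surroundings of the osteoblast. *Ifitm5*, *Bglap*, *Bglap2* and the related *Bglap3* were among them. *Car3*, a carbonic anhydrase, was at 281 and 164 CPM in Ifitm5+ cells, against 2.84 and 3.12 CPM in the other cells. *Slc36a2*, an amino acid transporter, was at 69.6 and 83.4 CPM, against 1.39 and 2.18 CPM. Both were thus low on average in the other cells on both days. That average is over 6386 and 9177 cells, among them 212 and 385 with at least 5 osteocalcin UMIs. *Col13a1*, a collagen anchored in the membrane, was at 239 and 227 CPM against 8.13 and 7.66 CPM. *Hhip*, a decoy receptor for hedgehog ligands, was at 146 and 243 CPM against 5.69 and 11.5 CPM. *Ptprz1*, a receptor tyrosine phosphatase, was at 186 and 157 CPM against 8.71 and 8.03 CPM. These last 3 genes were seen in many Ifitm5+ cells, in 58.8% and 56.8% for *Col13a1*, 28.9% and 36.7% for *Hhip*, and 35.6% and 28.0% for *Ptprz1* after thinning. The remaining 6 were *Col22a1* (a collagen of tissue junctions), *Hs3st6* (a sulfotransferase of heparan sulfate), *Dkk1* (a secreted Wnt inhibitor), *Entpd3* (an ectonucleotidase), *Gal* (the neuropeptide galanin) and *Cdo1* (cysteine dioxygenase), with log2 ratios between 3.96 and 5.33.

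The 10 genes with the smallest ratios began with *Col10a1*, which the rule fixes. *Col4a1* and *Col4a2*, which form basement membrane collagen, had log2 ratios of -4.88 and -3.42 at day 10 and of -4.15 and -3.42 at day 14. *Sfrp2*, a secreted Wnt-binding protein, was at 1.84 CPM (7 UMIs) and 4.88 CPM in Ifitm5+ cells, against 48.4 and 74.5 CPM in the other cells. *Igf1*, the growth factor, was at 13.9 and 54.7 CPM against 298 and 490 CPM. The others were *Smoc1*, *Col18a1*, *Mfap5*, *Actg2* and *Rgs5*, genes of matrix, microfibrils and contractile or perivascular cells. *Rgs5* had 2 UMIs at day 10, a log2 ratio of -7.36 with an interval from -10.41 to -5.51.

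Of 20 listed osteoblast genes, 17 passed the filter on both days, 11 were at least 2-fold higher and none was at least 2-fold lower. The median of those that passed on a day was 1.72 at day 10 and 1.68 at day 14, beside -0.16 and -0.19 over all genes. *Col1a1*, the main chain of type I collagen, was at 42160 and 37224 CPM, against 11436 and 11112 CPM. *Ibsp* was at 60479 and 54320 CPM, against 11642 and 10563 CPM in the other cells and 5403 CPM in the *Ptprc*-positive cells of day 14. *Sp7*, the transcription factor osterix, had log2 ratios of 1.80 and 1.68, and *Runx2*, which acts before it in the lineage, 0.83 and 0.74. *Spp1* had 0.97 and 0.16, the smallest of the 17 at day 14. *Kera*, keratocan, had no UMI in Ifitm5+ cells at day 10 and 2 UMIs at day 14.

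Among the regulators, 14 of 22 listed transcription factors passed on both days, 4 were higher and 3 lower, beside 2.54% and 5.92% of all genes. *Tcf7*, a transcription factor of Wnt signaling, was at 48.1 and 60.8 CPM against 3.99 and 3.93 CPM. *Mef2c* (log2 ratios 1.51 and 1.34) and *Sp7* were also higher. Lower were the cartilage factor *Sox5* (-2.19 and -1.30), the tendon factor *Scx* (-1.06 and -1.88) and *Snai2* (-1.20 and -1.56), while *Sox9* was at -0.66 and -1.02.

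Osteocyte genes were divided. Of 14, 11 passed, 4 were at least 2-fold higher on both days and none was lower, beside 2.54% and 5.92% of all genes. *Dmp1*, an acidic matrix protein, was at 322 and 252 CPM against 22.1 and 35.7 CPM. *Phex*, an endopeptidase of phosphate control, was at 191 and 119 CPM against 26.7 and 35.2 CPM, and *Ptprz1* and *Dkk1* were the other 2. *Pdpn*, podoplanin of young osteocytes, had log2 ratios of 1.08 and 0.53, *Irx5* 1.60 and 0.63, *Cd44* -0.31 and -0.59, and *Mmp14* -0.36 and -0.66. The genes of late osteocytes were scarce. *Sost* had 1 UMI at day 10 and 99 UMIs at day 14, *Mepe* had 3 UMIs and 51 UMIs, and *Fgf23* had none on either day, which allows up to 0.788 and 0.357 CPM (3 UMIs).

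Of the other IFITM genes, none that passed the filter was 2-fold higher. *Ifitm2* was at 575 and 661 CPM in Ifitm5+ cells, against 532 and 654 CPM in the other cells. *Ifitm3* was at 343 and 130 CPM against 523 and 386 CPM, and *Ifitm10* had log2 ratios of -2.41 and -2.50. Both of them were lower in Ifitm5+ cells, and *Ifitm10* was the 1 family member at least 2-fold lower on both days. *Ifitm1*, *Ifitm6* and *Ifitm7* stayed below the filter, with *Ifitm1* at 6.31 and 8.10 CPM against 3.30 and 4.0 CPM. Of proteins described as partners of IFITM5 at the membrane, *Fkbp11*, a prolyl isomerase, was at 560 and 595 CPM against 275 and 259 CPM. *Cd81*, a tetraspanin, was at 172 and 252 CPM against 375 and 525 CPM, and *Cd9*, another, had log2 ratios of 0.00 on both days.

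Of 21 genes mutated in osteogenesis imperfecta, 19 passed, 6 were higher and none was lower, beside 2.54% and 5.92% of all genes. The 6 were *Ifitm5*, which the rule fixes, *Col1a1*, *Col1a2*, *Sp7*, *Bmp1* and *Creb3l1*. *Bmp1*, which trims procollagen, was at 275 and 297 CPM against 131 and 130 CPM. *Creb3l1*, a transcription factor of the secretory pathway, was at 350 and 322 CPM against 114 and 112 CPM. The genes that fold and modify collagen differed less: *Crtap*, *P3h1*, *Ppib*, *Serpinh1* and *Fkbp10* lay between -0.49 and 0.60 on both days, and *Plod2*, a lysyl hydroxylase, was at -0.79 on both. Across 23 genes of collagen folding and crosslinking, 1 was higher (*Bmp1*) and 3 were lower. The 3 were *Loxl1*, *Loxl2* and *Loxl3*, all lysyl oxidase-like crosslinking enzymes with log2 ratios from -1.81 to -1.15. *Lox* itself was at 0.59 and 0.66. Of 16 secretory pathway genes, *Creb3l1* was the 1 that was higher and none was lower on both days, with medians of -0.41 and -0.21. The 1 higher gene of each of these last 2 lists is near the 2.54% of all genes and is no result about the list.

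Mineral and vitamin K genes split as well. Of 11 phosphate and mineral enzymes, 7 passed, *Phex* and *Smpd3* were higher and *Enpp1* and *Slc20a1* lower on both days. Over all genes, 2.54% were higher and 5.92% lower. *Smpd3*, a sphingomyelinase needed for bone mineral, had log2 ratios of 1.07 and 1.40. *Enpp1*, which makes the mineral inhibitor pyrophosphate, had -1.37 and -1.70, and *Slc20a1*, a phosphate transporter, -1.58 and -2.02. *Alpl*, the phosphatase that degrades pyrophosphate, was at 1388 CPM against 561 CPM at day 10 and at 1169 against 594 CPM at day 14. Among 8 Gla proteins and vitamin K enzymes, the 3 osteocalcin genes were higher and *Mgp* and *Gas6* lower. *Mgp*, the matrix Gla protein that inhibits mineral, was at 2496 and 2083 CPM, against 14376 and 12270 CPM. The enzymes *Ggcx* and *Vkorc1* lay between -0.31 and 0.19.

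For secreted signals, 4 of 12 Wnt genes that passed were higher and 2 lower, beside 2.54% and 5.92% of all genes. *Wif1*, a Wnt inhibitor, was at 207 and 244 CPM against 24.8 and 48.8 CPM. *Dkk1* was at 25.2 and 47.2 CPM against 1.16 and 2.33 CPM, and *Notum*, an enzyme that inactivates Wnts, had log2 ratios of 1.15 and 1.59. The receptor *Lrp5* had 1.04 and 1.01. Lower were *Sfrp1* (-3.20 and -2.27) and *Sfrp2* (-4.72 and -3.93). Of 10 BMP pathway genes that passed, 3 were higher, all ligands, and none was lower. *Bmp3* was at 47.0 and 69.1 CPM against 1.90 and 5.11 CPM, *Bmp4* at 43.6 and 26.6 CPM against 1.68 and 2.21 CPM, and *Bmp8a* had log2 ratios of 2.52 and 1.46. Of 10 hormone receptors and osteoclast factors, 8 passed. *Vdr*, the vitamin D receptor, was higher (1.54 and 1.23), and *Tnfsf11*, which encodes the osteoclast factor RANKL, and the chemokine *Cxcl12* were lower (-1.37 and -2.56, and -2.56 and -2.12).

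Markers of other cell types were low but not absent. The 10 chondrocyte markers summed to 17632 and 11967 CPM in Ifitm5+ cells, against 49083 and 28224 CPM in the other cells, none was at 0, and 8 of 10 were at least 2-fold lower on both days. *Col2a1*, the cartilage collagen, was at 10210 and 6184 CPM, against 5738 CPM in *Ptprc*-positive and 2233 CPM in *Rgs5*-high cells of day 14. All 5 *Postn* progenitor markers were lower, with sums of 996 and 1031 CPM against 4178 and 4998 CPM. Of 5 hypertrophic markers that passed, *Panx3*, a channel protein, was higher (1.21 and 1.27), and *Col10a1*, fixed by the rule, and *Ihh* were lower. *Lepr*, a marker of reticular stromal cells, was higher, at 25.5 and 17.9 CPM against 3.13 and 3.47 CPM, while the fat genes *Lpl* and *Adipoq* were at 3.42 and 5.12 CPM and at 0. Hematopoietic markers summed to 3.42 and 28.0 CPM against 33.3 and 323 CPM, with *Ptprc*, fixed by the rule, and *Cd74* at 0 on both days. Pericyte markers summed to 1.58 and 20.6 CPM against 102 and 186 CPM with *Kcnj8* at 0, and endothelial markers to 2.37 and 2.14 CPM against 2.96 and 3.73 CPM with *Emcn* and *Tek* at 0. Osteoclast markers summed to 202 and 229 CPM against 272 and 381 CPM, nearly all from *Ctsk*, with *Atp6v0d2* and *Calcr* at 0. Of 10 cell cycle genes, 7 passed and none was 2-fold different on both days, and *Mki67* (-0.82 and 0.60) and *Top2a* (-0.83 and 0.77), both of dividing cells, changed sign between the days.

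**Figure D2:**
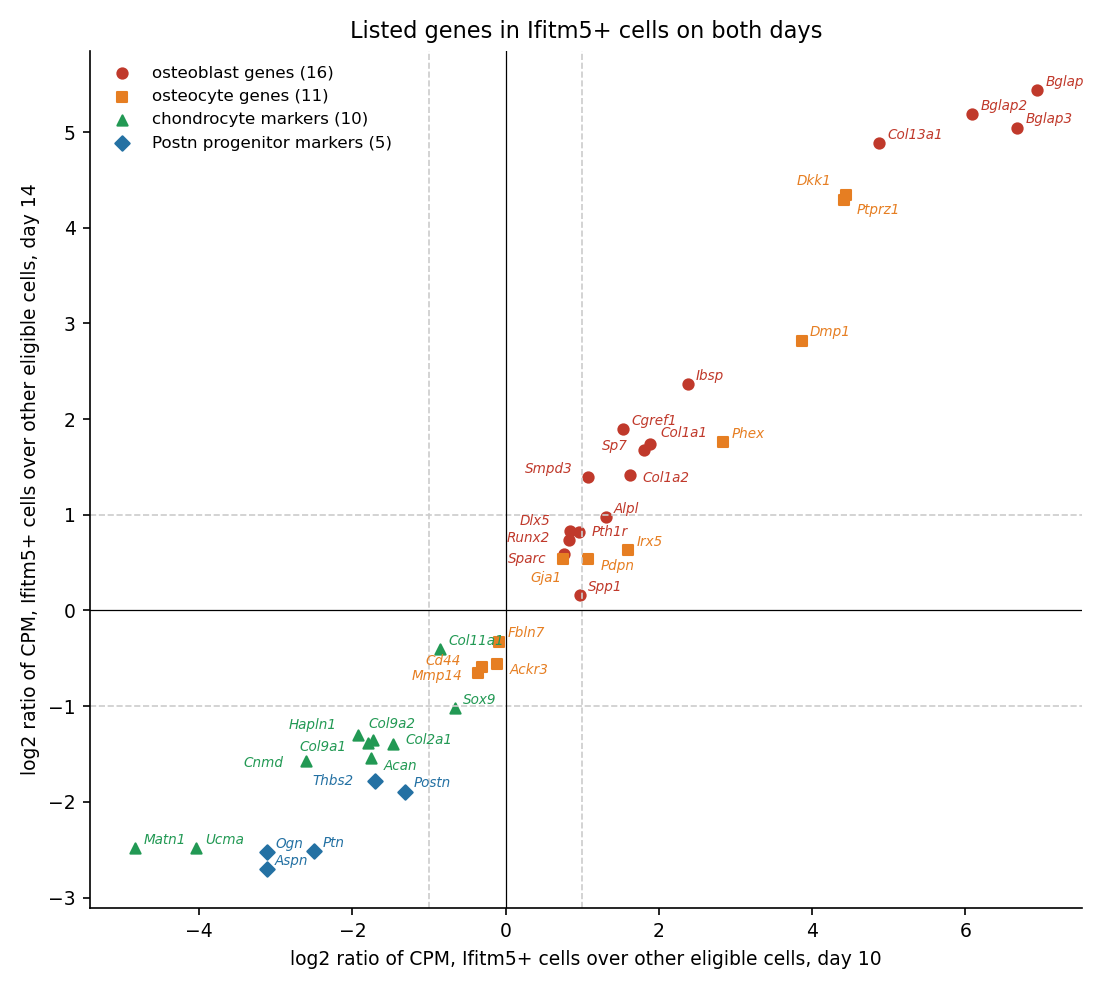
Points are listed genes that passed the filter, each with its log2 ratio of CPM in Ifitm5+ cells over the other cells at day 10 (horizontal) and day 14 (vertical); dashed lines mark a 2-fold difference. Osteoblast genes lie above 0 on both days, from *Spp1* at 0.97 and 0.16 to *Bglap* at 6.93 and 5.44, chondrocyte and *Postn* progenitor markers lie below 0, and osteocyte genes lie on both sides.

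2 groups of eligible cells without an *Ifitm5* UMI were set beside the Ifitm5+ cells. They were chosen by marker genes, and their likeness to the Ifitm5+ cells was not measured. The first were 389 and 543 Sp7+ cells with at least 2 *Sp7* UMIs and fewer than 50 UMIs per 10,000 each of *Col10a1* and *Col2a1*. The second were 580 and 1484 Col10a1-high cells at or above 50 per 10,000. The Ifitm5+ cells had no limit on *Col2a1*, which was at 10210 and 6184 CPM in them. Cartilage genes can therefore differ from the Sp7+ cells through the choice of cells. *Sp7*, by which the Sp7+ cells were chosen, was at 204 CPM in Ifitm5+ and 196 CPM in Sp7+ cells at day 10, and at 151 and 179 CPM at day 14. *Ibsp* was at 16284 and 12497 CPM in Sp7+ cells and at 28599 and 19496 CPM in Col10a1-high cells, below the Ifitm5+ cells on both days. *Postn*, the progenitor gene, was at 3764 and 2375 CPM in Sp7+ cells, against 553 and 354 CPM in Ifitm5+ cells.

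Here the 50 most abundant genes shifted ratios by 0.25 and 0.19. Over all genes, 170 of 7134 (2.38%) were at least 2-fold higher in Ifitm5+ than in Sp7+ cells on both days and 450 (6.31%) lower. The 170 genes shared 112 with the 179 of the comparison with the other cells, 65.9% and 62.6% of each list, and both comparisons use the same Ifitm5+ cells. Among the 10 largest, beside *Ifitm5* and the osteocalcin genes, were *Col22a1* (82.8 and 62.7 CPM against 0.907 and 1.40 CPM), *Dkk1*, *Car3*, *Col13a1*, *Gal* and *Slc13a5*, the citrate transporter, which was at 256 and 232 CPM against 18.1 and 12.7 CPM. Cell cycle genes separated the groups at day 10, when all 10 were at least 2-fold lower in Ifitm5+ cells (10.9% of all genes that day), and at day 14 none of the 8 that passed was (8.12% of all genes). Against Col10a1-high cells, 382 of 6847 genes (5.58%) were higher and 452 (6.6%) lower. *Hhip* was at 0.485 CPM (5 UMIs) and 3.68 CPM in Col10a1-high cells, *Hs3st6* at 0.485 CPM (5 UMIs) and 0.120 CPM (3 UMIs). *Spp1* was higher in Col10a1-high cells (21308 and 30518 CPM) than in Ifitm5+ cells (9735 and 13172 CPM), and *Phex* was nearer, at 120 and 90.7 CPM.

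**Figure D3:**
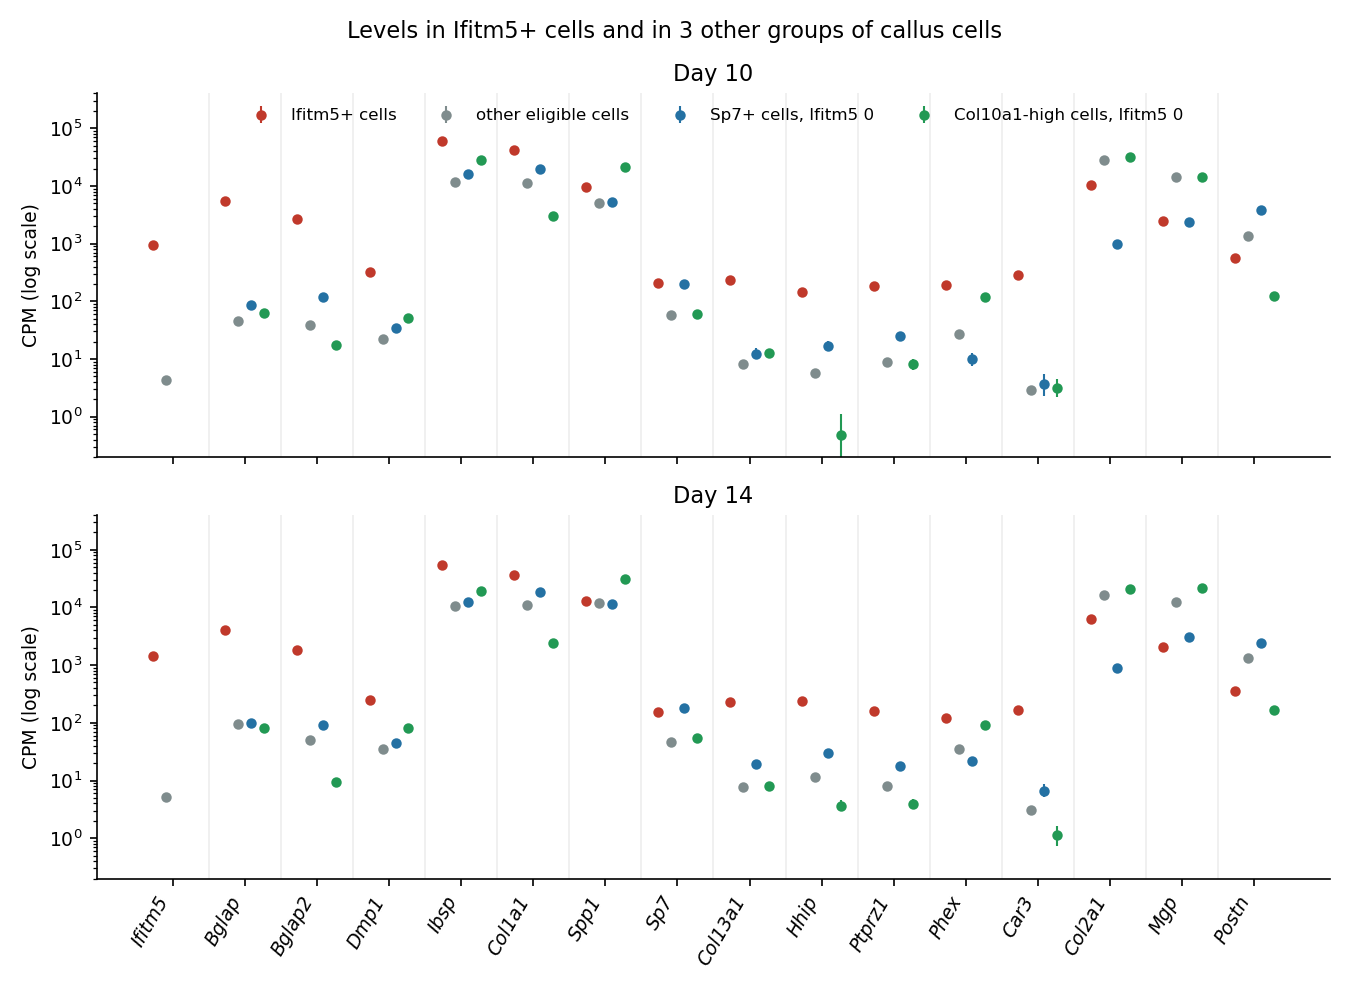
Levels in CPM (log scale) of 16 genes at day 10 (top) and day 14 (bottom) in Ifitm5+ cells (red), the other cells (gray), Sp7+ cells without *Ifitm5* (blue) and Col10a1-high cells without *Ifitm5* (green), with exact Poisson 95% intervals. Red points are highest for *Col13a1*, *Hhip*, *Ptprz1* and *Car3* on both days, blue is fixed by selection for *Sp7*, and green is highest for *Spp1* and *Col2a1*.

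Since so few Ifitm5+ cells held the osteocalcin UMIs, the cells were divided at 5 UMIs of *Bglap* plus *Bglap2*, a limit chosen after the values were seen. The 50 and 175 osteocalcin+ cells and the 151 and 328 osteocalcin-low cells differed little in depth, with median UMIs of 19644.5 and 17917 against 20055 and 16592. In osteocalcin-low cells *Bglap* was at 16.5 and 26.8 CPM, a level that the limit fixes, and in all other cells at 45.6 and 94.4 CPM. Against the other cells, the osteocalcin-low cells had 175 of 7037 genes higher (2.49%) and 382 lower (5.43%). Of the 179 and 417 genes found with all Ifitm5+ cells, 156 (87.2%) and 358 (85.9%) were again among them, in a comparison that shares the other cells and most Ifitm5+ cells. *Ifitm5* itself was at 1078 and 1356 CPM in osteocalcin+ and at 899 and 1476 CPM in osteocalcin-low cells.

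Within the Ifitm5+ cells, 63 of 6477 genes (0.973%) were at least 1.5-fold higher in osteocalcin+ cells on both days and 141 (2.18%) lower. *Car3* was at 945 and 275 CPM in osteocalcin+ cells and at 58.9 and 102 CPM in osteocalcin-low cells. *Cpz*, a carboxypeptidase that binds Wnts, was at 139 and 60.5 CPM against 7.37 and 12.9 CPM. *Lipc*, hepatic lipase, was at 63.9 and 24.5 CPM against 5.61 and 6.09 CPM, and *Slc36a2* at 158 and 134 CPM against 40.0 and 55.4 CPM. All 4 were thus higher with osteocalcin on both days. *Ibsp* went the other way, with 27473 and 38163 CPM in osteocalcin+ cells and 71534 and 63189 CPM in osteocalcin-low cells. Also lower with osteocalcin were *Slpi*, a protease inhibitor (90.1 and 110 CPM against 295 and 271 CPM), *Lbp*, which binds lipopolysaccharide (23.0 and 13.1 CPM against 110 and 52.4 CPM), and *Tnfrsf11b*, the RANKL decoy osteoprotegerin (41.9 and 32.3 CPM against 92.6 and 77.1 CPM). *Dmp1* was at 555 against 244 CPM at day 10 and at 263 against 246 CPM at day 14. At day 14 a few osteocalcin+ cells also held pericyte RNA: *Rgs5* had 140 UMIs in them against 4 in osteocalcin-low cells.

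A *Dmp1* UMI was present in 60 Ifitm5+ cells at day 10 and in 159 at day 14. *Dmp1* was also unevenly spread, with 86.4% and 81.8% of its UMIs in 20 and 50 cells and up to 267 and 194 UMIs in a cell. Cells with *Dmp1* were not deeper than those without, with median UMIs of 18506.5 and 16855 against 20060 and 17433, and had fewer genes (3465.5 and 3212 against 3727 and 3519.5). They were more often osteocalcin+, in 22 of 60 cells (36.7%, 24.6 to 50.1) against 28 of 141 (19.9%, 13.6 to 27.4) at day 10, and in 65 of 159 (40.9%, 33.2 to 48.9) against 110 of 344 (32.0%, 27.1 to 37.2) at day 14, with overlapping intervals on both days.

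Cells with *Dmp1* had higher levels of other osteocyte genes and of some BMP and Wnt genes, and lower levels of cartilage genes. Of 6471 genes, 138 (2.13%) were at least 1.5-fold higher on both days and 333 (5.15%) at least 1.5-fold lower. With the 50 most abundant genes left out of the totals, ratios shifted by 0.09 and 0.14, and the counts were 244 and 311. Beside *Dmp1*, which the split fixes, *Phex* was at 449 and 268 CPM with *Dmp1* against 84.5 and 51.1 CPM without. A *Phex* UMI was seen in 104 of 201 and 186 of 503 Ifitm5+ cells, and 20 and 50 of them held 63.7% and 70.4% of its UMIs. *Ptprz1* was at 395 and 345 CPM against 100 and 71.3 CPM, and *Hhip* at 299 and 498 CPM against 82.6 and 125 CPM. *Dkk1* was at 54.2 and 90.9 CPM against 13.3 and 27.1 CPM, *Bmp3* at 117 and 131 CPM against 18.5 and 40.8 CPM, and *Pdpn* at 85.9 and 60.2 CPM against 8.52 and 19.1 CPM. All 6 of these genes differed by at least 3-fold on both days. The remaining 3 of the 10 largest were *Ccdc194*, the sodium channel gene *Scn1a* and the immunoglobulin gene *Ighm* (35.3 and 33.3 CPM against 2.96 and 9.73 CPM).

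Of 14 osteocyte genes, 11 passed, 7 were higher with *Dmp1*, counting *Dmp1* itself, and none was lower, beside 2.13% and 5.15% of all genes. The others were *Phex*, *Ptprz1*, *Dkk1*, *Pdpn*, *Irx5* (log2 ratios 1.35 and 1.44) and *Ackr3*, a chemokine receptor (0.77 and 0.97). *Sost* was at 34.5 CPM against 1.39 CPM (8 UMIs) at day 14, and 7 of its 19 cells held at least 5 UMIs. Of the mineral genes, *Phex*, *Enpp1* (1.02 and 0.96) and *Fam20c*, the kinase of secreted phosphoproteins (1.58 and 0.93), were higher. *Spp1* was at 15160 and 25075 CPM with *Dmp1* against 7512 and 7708 CPM without, although it hardly differed between all Ifitm5+ and the other cells at day 14. Among osteoblast genes, 3 of 18 were higher on both days, among them *Spp1* and *Col1a2*, and *Pth1r*, the parathyroid hormone receptor, was lower (-0.60 and -0.62). *Ifitm5* was at 1154 and 1828 CPM against 858 and 1253 CPM. Of 9 BMP genes that passed, *Bmp2*, *Bmp3*, *Bmp4* and *Bmp8a* were higher and the antagonist *Chrdl1* lower (-1.47 and -1.67). Of 10 Wnt genes, *Dkk1*, *Wif1* (0.95 and 1.05) and *Lrp5* (1.02 and 0.79) were higher and *Kremen1*, a receptor for Dickkopf proteins, lower (-0.89 and -1.65).

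The 10 genes with the smallest ratios were *Aff3*, the centromere histone *Cenpa*, the sulfatase *Arsi*, the matrix protein *Tgfbi*, *Scin* (an actin-severing protein), *Serpinb9* (a granzyme inhibitor), *Sox5*, *Rtl3*, the calcineurin regulator *Rcan2* and *Col27a1*, a collagen of cartilage. *Tgfbi* was at 28.0 and 21.2 CPM against 129 and 98.4 CPM, and *Col27a1* had log2 ratios of -2.84 and -1.92. *Mgp* was at 288 and 745 CPM against 3401 and 2698 CPM. Chondrocyte markers were lower in cells with *Dmp1*, where they summed to 8549 and 7103 CPM against 21354 and 14199 CPM without, and 7 of the 9 that passed were at least 1.5-fold lower on both days. *Col2a1* was at 4339 and 2806 CPM against 12616 and 7735 CPM. Within the Ifitm5+ cells with fewer than 10 *Col2a1* UMIs per 10,000, 135 genes were higher and 409 lower with *Dmp1*. Doublets were not removed for these values. Without the highest doublet scores, 144 genes were higher and 355 lower.

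The *Dmp1* and osteocalcin divisions shared some of their genes. Of the 138 and 63 genes higher on each side, 16 were common (11.6% and 25.4%) and 8 of the 138 were lower with osteocalcin. Of the 333 and 141 lower genes, 44 were common (13.2% and 31.2%) and 2 of the 333 were higher with osteocalcin. Over all genes, 0.973% were higher and 2.18% lower with osteocalcin. Both divisions use the same cells. *Hhip* (-0.14 and -0.04) and *Ptprz1* (-0.43 and -0.55) were not higher in osteocalcin+ cells.

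**Figure D4:**
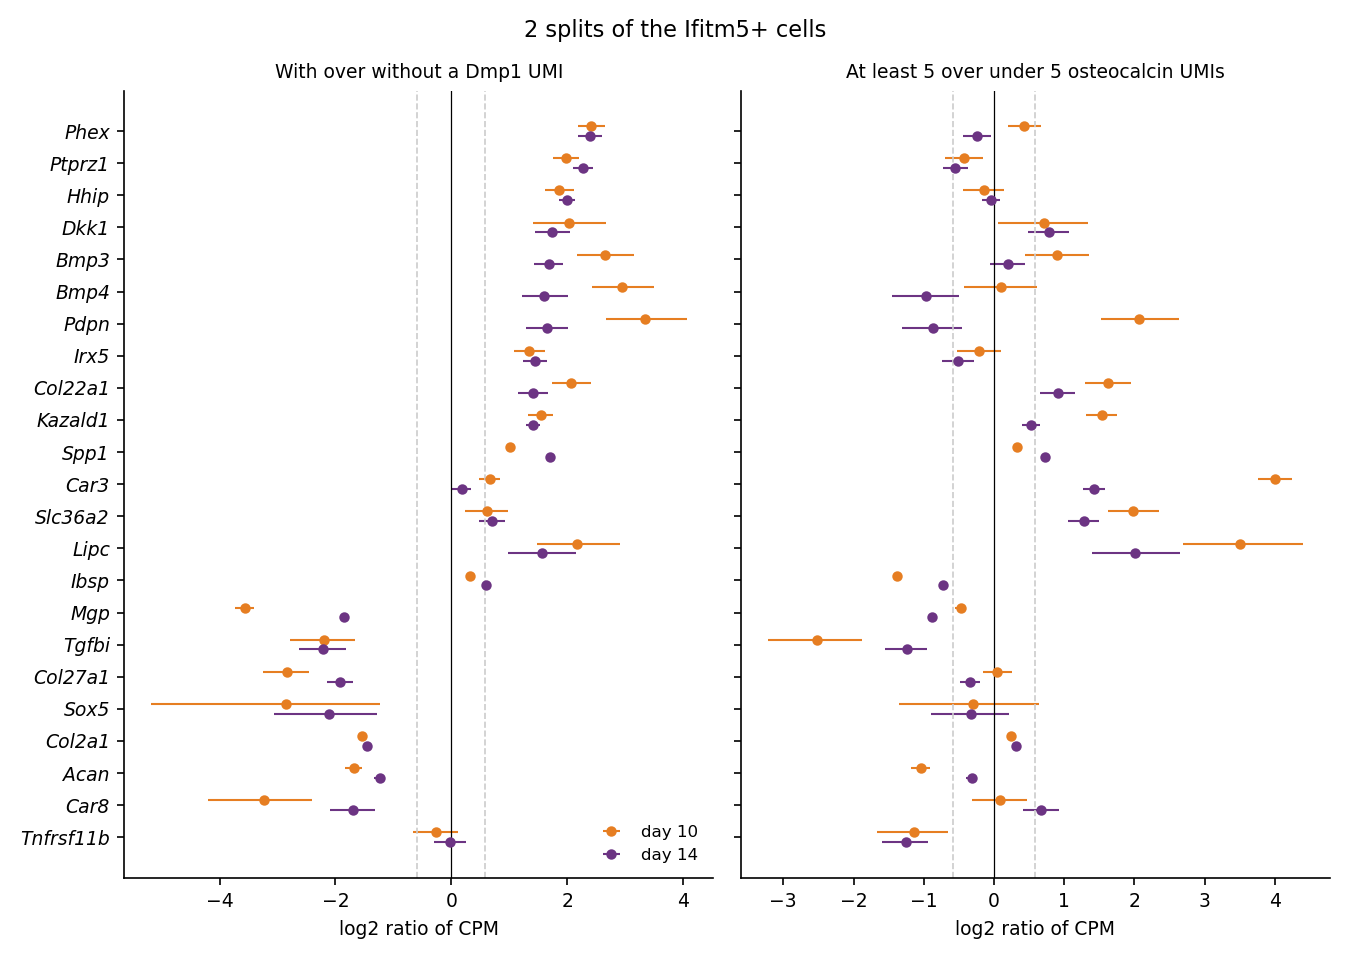
Log2 ratios of CPM of 23 genes within the Ifitm5+ cells, with exact binomial 95% intervals, for cells with over cells without a *Dmp1* UMI (left) and for cells with at least 5 over cells with fewer than 5 osteocalcin UMIs (right), at day 10 (orange) and day 14 (purple); dashed lines mark 1.5-fold. *Phex*, *Ptprz1*, *Hhip* and *Bmp3* lie above 1.5 with *Dmp1* on both days and near 0 with osteocalcin, where *Bmp3* of day 10 is at 0.91, and *Ibsp* lies above 0 on the left and at -1.38 and -0.73 on the right.

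Cells were also ordered by their *Ifitm5* UMIs per 10,000 and divided into 4 bins of 50 or 51 cells at day 10 and 125 or 126 at day 14. From the lowest to the highest bin *Col2a1* went from 15929 to 13748, 7257 and 2197 CPM at day 10 and from 12820 to 5460, 3329 and 961 CPM at day 14. *Acan*, the cartilage proteoglycan, went from 1690 to 353 CPM and from 1524 to 210 CPM. *Aspn*, a *Postn* progenitor marker, went from 249 to 48.8 CPM and from 596 to 50.5 CPM. All 3 genes were lower at every step on both days. *Bmp3* was at 40.4 and 24.5 CPM in the lowest bin and at 83.6 and 116 CPM in the highest, with a dip to 17.5 CPM in the second bin of day 10. *Ibsp* differed little at day 10 (58363 to 63443 CPM) and more at day 14 (45853 to 73702 CPM). Osteocalcin did not rise or fall steadily with *Ifitm5*. *Bglap* was at 270, 6285, 9205 and 7843 CPM at day 10 and at 2358, 9381, 4415 and 1567 CPM at day 14. Single cells weigh heavily on these levels: at day 10, 1 cell of the second bin held 5532 osteocalcin UMIs and 1 of the highest bin 6610. The share of cells with a *Bglap* UMI was 23.5%, 38.0%, 52.0% and 42.0% at day 10. At day 14 it was 53.2%, 55.6%, 54.8% and 45.6%. *Dmp1* went from 680 to 161 CPM at day 10 and from 152 to 278 CPM at day 14. At day 10, 2 cells held 267 and 186 of the 757 *Dmp1* UMIs of the lowest bin. The share of cells with a *Dmp1* UMI was higher in the highest than in the lowest bin on both days, 40.0% against 25.5% and 40.8% against 22.2%. Depth moved with the order too, with median UMIs of 21939 and 21132 in the lowest bins against 17124.5 and 17177 in the highest. Part of this order is set by the rule. A shallow cell with at least 3 *Ifitm5* UMIs cannot have a low value per 10,000, so the lowest bins exclude such cells. The part of depth in these levels was not tested.

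**Figure D5:**
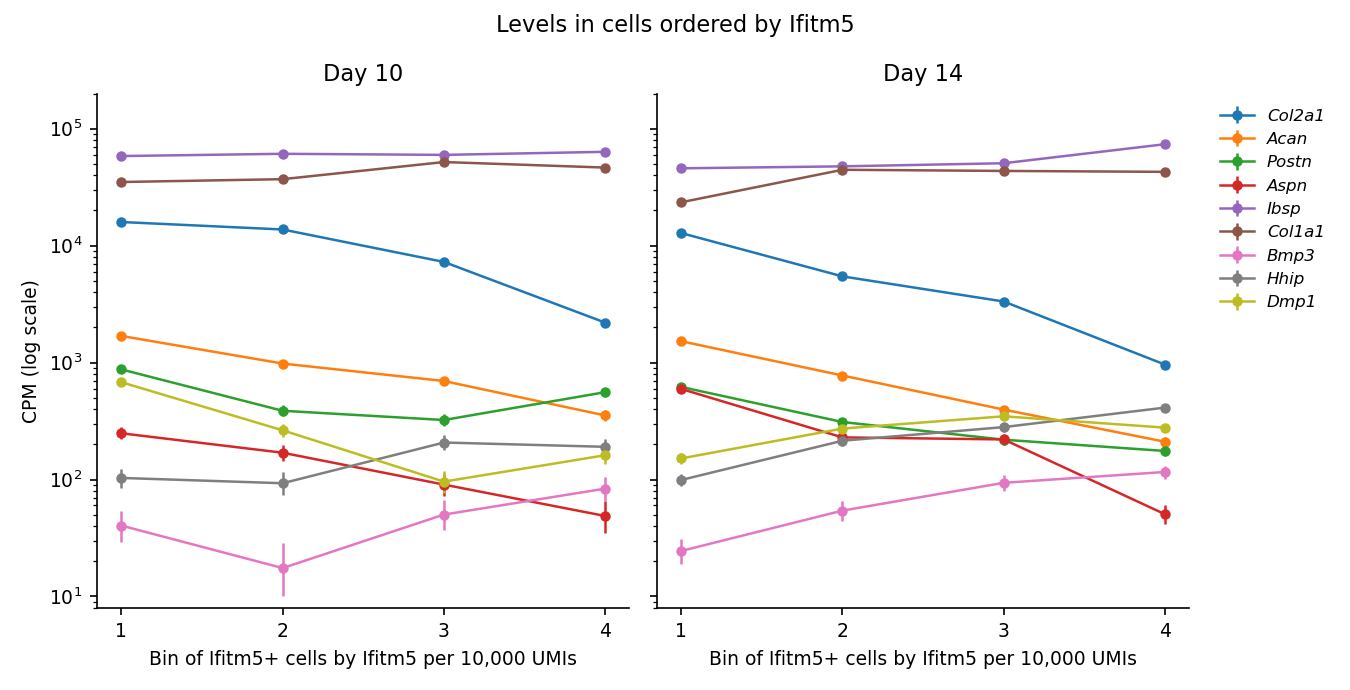
Levels in CPM (log scale) of 9 genes in the bins of Ifitm5+ cells, from the lowest (1) to the highest (4) *Ifitm5* UMIs per 10,000, at day 10 and day 14, with exact Poisson 95% intervals. *Col2a1* drops from 15929 to 2197 CPM and from 12820 to 961 CPM, and *Ibsp* and *Col1a1* lie above the 7 others drawn (*Col2a1*, *Acan*, *Postn*, *Aspn*, *Bmp3*, *Hhip* and *Dmp1*) in every bin.

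Between the days, the Ifitm5+ cells differed in few genes. Of 6872 genes, 35 (0.509%) were at least 2-fold higher at day 14 and 76 (1.11%) at least 2-fold lower. *Ifitm5* was at 944 CPM and then 1434 CPM, *Spp1* at 9735 and then 13172 CPM, and *Bglap* at 5580 and then 4104 CPM. Among the genes lower at day 14, *Bst2*, which tethers viruses, went from 291 to 36.8 CPM in Ifitm5+ cells and from 214 to 79.5 CPM in the other cells. *Ifi27l2a*, like it induced by interferon, went from 29.2 to 2.38 CPM (56.4 to 13.6 CPM in the other cells). Both were lower in both groups of cells. Higher at day 14 were *Cdkn2a*, a cell cycle inhibitor, from 5.78 to 50.8 CPM (31.4 to 71.2 CPM in the other cells), and *Tagln*, a contractile protein, from 1.58 to 30.9 CPM (181 to 234 CPM). The pericyte gene *Rgs5* moved with *Tagln*, from 0.526 to 17.2 CPM in Ifitm5+ cells, and the 5 pericyte markers from 1.58 to 20.6 CPM in sum, and their part in it was not tested.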

How the data were processed

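The authors processed droplet libraries of sorted callus cells with Cell Ranger (3.0 and mm10 per the labels) and deposited UMI counts per gene and barcode, without normalization. The sources used here name different versions of the kit and of Cell Ranger. Whole-number counts were read as deposited, and day 7 was used only for a side value. Counts of eligible cells were summed per group and day and given as CPM with exact Poisson intervals, ratios with exact binomial intervals, and shares with Clopper-Pearson intervals (scipy 1.17.1, numpy 2.4.6). A ratio was called at 2-fold, or 1.5-fold within the Ifitm5+ cells, on both days, for genes with a mean of at least 10 CPM. With 1 library a day no test was made. Shares were repeated at 5000 UMIs a cell. On simulated data of day 14 over 7457 genes, the calls recovered 50 of 50 genes raised 3-fold, 50 of 50 raised 4-fold, 42 of 50 lowered 3-fold and 39 of 50 lowered 4-fold. The simulation drew summed counts of that day alone, with counting error but no spread between cells. Its calls did not need both days, so it does not show how the reported calls perform. The cells, lists and comparisons were chosen with earlier results of these data known. Named genes were the label markers, the 15 highest and 10 lowest genes against the other cells, the 10 highest and 10 lowest of the *Dmp1* division, and examples from each list. Other genes, among them those of the osteocalcin division, the Sp7+ and Col10a1-high comparisons and the days, were chosen after their values were seen. Some genes counted in the lists are not reported here by name. Doublets stayed in, since Scrublet marked 1 of 8226 cells at day 10 and 326 of 12067 at day 14, 17 of them Ifitm5+ cells.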

Additional observations from a re-analysis of the deposited data

Results flagged for a closer look

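The osteocalcin division gave opposite signs on the days for 5 listed genes, and the difference between the days was not tested. *Pdpn* had log2 ratios of 2.07 at day 10 and -0.87 at day 14 (72.3 and 20.8 CPM in osteocalcin+ cells, 17.2 and 38.2 CPM in osteocalcin-low cells). *Aspn* had -0.70 and 0.68, and *Ogn*, a matrix proteoglycan like it, -1.10 and 0.62. *Scx* had -1.35 and 0.71. *Acta2*, smooth muscle actin, had -2.91 and 2.12, with 4 UMIs in osteocalcin+ cells at day 10.

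The day 7 library, used in no comparison, held 15 cells that pass the same rule among 447 eligible cells. Their *Ifitm5* level was 435 CPM and their *Bglap* level 6539 CPM, with *Bglap* UMIs in 8 cells. *Dmp1* was at 1243 CPM, in 5 cells.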

How the results depend on the processing

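Of the counts and shares under other settings, 91 stayed within their limits and 11 moved. A mean CPM of at least 1 gave 340 higher and 1045 lower genes against the other cells and 364 and 964 with *Dmp1*. A mean of at least 50 gave 64, 123, 44 and 96. Totals without the 50 most abundant genes gave 244 genes higher with *Dmp1*. The share of cells with *Dmp1* at day 14 was 25.4% after thinning and 23.7% for at least 2 UMIs. In osteocalcin-low cells alone, a setting added after seeing the data, *Bglap* had log2 ratios of -1.47 and -1.82 and *Bglap2* of -2.62 and -2.25, since those cells are defined by low osteocalcin. These were the 4 ratios of at least 2-fold that changed sign. Of the other values of single genes, 119 were within their intervals and 189 moved, among them *Spp1* at day 14, which was under 2-fold and ranged from -0.14 to 0.30. No paired analysis was possible because each day has 1 library, so no replicate could be left out either. Leaving out the cells that Scrublet marked gave 185 and 426 genes, although it marked 1 cell at day 10. Leaving out the highest doublet scores, also added after seeing the data, gave 197 and 442 genes.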
